A study of Mus musculus with 2 samples.

Results

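Globin genes encode the protein chains of hemoglobin, the oxygen carrier of red cells. The 8 alpha and beta globin genes of the mouse described here were Hba-a1, Hba-a2 and Hba-x of the alpha family and Hbb-bs, Hbb-bt, Hbb-bh1, Hbb-bh2 and Hbb-y of the beta family. They were chosen by gene symbol, through the Ensembl gene identifier, from 43346 mouse genes in the deposited tables, and all 8 have a row there. The RNA was total RNA from 2 libraries, each made from a pool of 100 hematopoietic stem cells, the bone marrow cells from which all blood lineages arise. Both libraries came from adult male C57BL/6J mice of 5 to 6 weeks, with no genetic change, treatment or agent named, and the labels call them replicates 1 and 2. There is no second group, so nothing was compared between conditions, and the sorting gate is not stated in the labels. Both libraries carry 1 donor identifier with different biosample identifiers; the labels do not say whether different animals were used, so the difference between libraries may be technical in part.

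An adult hemoglobin molecule pairs alpha with beta chains, and each chain holds 1 heme group. The alpha genes lie in 1 cluster and the beta genes in another, and in each the embryonic genes are followed along the chromosome by the adult genes. Red cell precursors of the yolk sac use Hba-x, Hbb-y and Hbb-bh1, and those of the fetal liver and adult marrow use Hba-a1 and Hba-a2 with the adult beta genes. Stem cells make no hemoglobin in quantity; globin RNA reaches its highest level in late erythroblasts and reticulocytes. In the C57BL/6 strain the adult beta genes Hbb-bs and Hbb-bt encode the same protein.

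The first 2 alpha genes and the first 2 beta genes are adult, and the other 4 were grouped as embryonic. On mm10, Hba-a1 (ENSMUSG00000069919) lies at chr11:32283511-32284465 and Hba-a2 (ENSMUSG00000069917) at chr11:32296489-32297298, both on the plus strand. Hba-x (ENSMUSG00000055609) lies before them on the same strand at chr11:32276400-32278116. On the minus strand of chromosome 7, Hbb-bt (ENSMUSG00000073940) lies at chr7:103812524-103813996 and Hbb-bs (ENSMUSG00000052305) at chr7:103826534-103828096. The embryonic beta genes follow at higher coordinates. They are Hbb-bh2 (ENSMUSG00000078621) at chr7:103839124-103840520, Hbb-bh1 (ENSMUSG00000052217) at chr7:103841637-103843164 and Hbb-y (ENSMUSG00000052187) at chr7:103851749-103853216.

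The adult genes form 2 near-identical pairs, and the stretches that tell the coding sequences of each pair apart are shown. Reads that lie wholly within the coding sequence and do not cross the differing base fit both genes of a pair. For the beta pair, reads that reach beyond the coding sequence can also tell the genes apart. For the alpha pair, the main coding transcript models match outside the coding sequence wherever both are annotated. Such reads differ there only where a model extends beyond the other. Each sequence is written 5′ to 3′ on the coding strand from the GENCODE M21 transcripts of this build. The capital letter is the single base at which the coding sequences of the pair differ. All 4 stretches are coding sequence of exon 3. Hba-a1 was read at chr11:32284313-32284373 and Hba-a2 at chr11:32297130-32297190. Hbb-bs was read at chr7:103826665-103826722 and Hbb-bt at chr7:103812656-103812713.
Hba-a1: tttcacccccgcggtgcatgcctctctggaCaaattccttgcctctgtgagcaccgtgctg
Hba-a2: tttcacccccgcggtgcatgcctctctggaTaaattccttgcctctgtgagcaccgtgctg
Hbb-bs: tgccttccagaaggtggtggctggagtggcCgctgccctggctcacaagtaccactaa
Hbb-bt: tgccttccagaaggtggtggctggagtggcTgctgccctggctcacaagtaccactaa

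The coding sequences of Hba-a1 and Hba-a2 are 429 bases long and 99.8% identical, with the single difference C381T, counted from the first base of the start codon with the Hba-a1 base first. It lies in codon 127 and leaves the amino acid the same. The coding sequences of Hbb-bs and Hbb-bt are 444 bases long and also 99.8% identical, with the single difference C417T (Hbb-bs base first) in codon 139, again without a change of amino acid. The proteins therefore match over all 142 codons of the alpha pair and all 147 of the beta pair. The rest of what separates the main coding transcript models of each pair lies outside the coding sequence. For the alpha pair it lies only where a model extends beyond the other. The main coding transcript model of Hba-a1 has 196 bases before the start codon and 74 after the stop codon, and that of Hba-a2 has 35 and 90. For Hbb-bs these are 53 and 131 bases, and for Hbb-bt 127 and 132.

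The start regions of the genes were compared because adult and embryonic members differed completely in detection, with the values given further on. The table of RefSeq promoters (GRCm38.p6, the same build) held 7 of the 8 genes, Hbb-bh1 being the other. The 4 windows shown, of 110 bases that end at the RefSeq start, are those of an adult alpha, an adult beta and 2 of the embryonic-group beta genes. Capitals mark the motif CACCC, the motif CCAAT and the motif GATAA, each searched on both strands, and the motif TATAA, searched on the coding strand; no marked motifs overlap in these windows. These short motifs are the letters that Klf1-type, CCAAT-binding and GATA factors and the TATA-binding protein are known to bind, and a match is a description only. The windows are chr11:32296382-32296491 (plus) for Hba-a2, chr7:103827929-103828038 (minus) for Hbb-bs, chr7:103840522-103840631 (minus) for Hbb-bh2 and chr7:103853208-103853317 (minus) for Hbb-y.
Hba-a2: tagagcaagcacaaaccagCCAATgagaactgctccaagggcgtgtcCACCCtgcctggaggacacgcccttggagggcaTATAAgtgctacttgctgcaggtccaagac
Hbb-bs: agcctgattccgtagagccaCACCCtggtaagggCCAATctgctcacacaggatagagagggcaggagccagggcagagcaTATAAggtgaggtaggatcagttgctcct
Hbb-bh2: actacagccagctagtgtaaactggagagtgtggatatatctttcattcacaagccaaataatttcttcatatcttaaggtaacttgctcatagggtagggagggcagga
Hbb-y: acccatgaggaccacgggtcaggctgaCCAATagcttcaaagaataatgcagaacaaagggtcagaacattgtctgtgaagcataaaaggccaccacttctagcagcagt

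Hba-a2 and Hbb-bs carry 1 CCAAT, 1 CACCC and 1 TATAA each in these 110 bases, Hbb-y carries 1 CCAAT alone, and Hbb-bh2 carries none of the 4 motifs. The embryonic Hba-x, whose window lies in annotated exons and is not printed, carries 1 CACCC, 1 GATAA and 1 TATAA, so 3 of the 4 motifs occur in an embryonic gene too. Of the adult genes not printed, Hba-a1 matches Hba-a2, and Hbb-bt carries 2 CACCC, 3 CCAAT and 1 TATAA. Over the 250 bases before the start, CACCC was present in 6 of the 7 genes (all but Hbb-bh2), CCAAT in 5 (all but Hba-x and Hbb-bh2), GATAA in all 7 and TATAA in 5 (all but Hbb-bh2 and Hbb-y). Of 32851 promoters of the same length in the table, 52.0% hold CACCC, 33.8% CCAAT, 22.6% GATAA and 16.0% TATAA. The promoters of Hba-a1 and Hba-a2 are identical over the 240 bases compared, with an offset of 3 bases between the RefSeq starts.

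The libraries held 48313341 (replicate 1) and 28947093 (replicate 2) expected counts, the estimated numbers of reads per gene summed over all rows. Levels are in TPM, a transcript abundance scaled for length and for the library total, so genes can be compared with each other. Markers of other cells differed between the libraries: 8 mature neutrophil genes had a median of 0.0200 TPM in replicate 1 against 26.8 TPM in replicate 2, where Ngp led them at 140 TPM. Of these 8 genes, Retnlg and Mmp8 had no count in either library. Of 10 stem cell markers, 9 were detected in both libraries, which means at 1 TPM or more with 10 or more expected counts in each; Slamf1 was at 2.87 and 0.360 TPM. Over all nuclear protein coding genes, 45.5% were detected in both libraries. The stem list summed to 529 and 364 TPM. Of 1645 nuclear protein coding genes with 1 to 3 TPM in replicate 2, replicate 1 lacked any count for 26.0%, and the reverse held for 2.56% of 1249 genes.

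All 4 adult genes were detected in both libraries and none of the 4 embryonic-group genes had a single expected count in either. Detection in both libraries is the background of 45.5% of all 21461 nuclear protein coding genes (24.7% of all 43346 genes), and 38.0% of the coding genes had no expected count in either library. Together the 8 genes summed to 616 and 590 TPM in replicates 1 and 2, which is 603 TPM ± 18.5 (SD, n = 2). That was 0.205% and 0.222% of the TPM of nuclear protein coding genes. In each library 28 of the 21461 coding genes were above this sum. Taken singly, the highest globin gene, Hba-a2, ranked 133 in replicate 1 and 110 in replicate 2 among the coding genes. In pools of cells, a few cells with much globin RNA and many cells with little cannot be told apart.

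Hba-a2 was the highest globin gene in both libraries, at 223 and 220 TPM in replicates 1 and 2 (222 ± 2.31, SD, n = 2). Hba-a1, which encodes the same alpha chain, stood at 188 and 157 TPM (172 ± 21.8). The libraries did not overlap for these genes: both values of Hba-a2 were above both of Hba-a1. Hbb-bt, the adult beta gene at the end of its cluster, was at 130 and 98.4 TPM (114 ± 22.3). Hbb-bs, the neighbouring adult beta gene, was at 74.7 and 114 TPM (94.5 ± 27.9). Hbb-bs and Hbb-bt overlapped, with Hbb-bt the higher in replicate 1 and Hbb-bs the higher in replicate 2. The order of the means was thus Hba-a2, Hba-a1, Hbb-bt and Hbb-bs, and the last 2 did not differ beyond the spread between libraries.

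**Figure D1:**
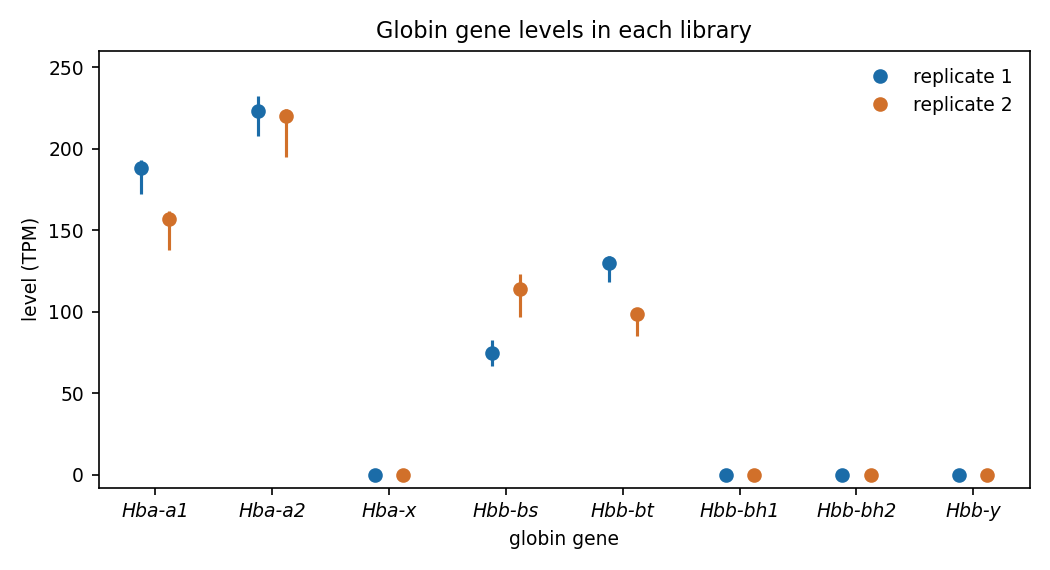
Level of each globin gene in TPM (y axis, linear) in replicate 1 (blue) and replicate 2 (orange); points are the deposited TPM and lines the deposited credibility bounds of each library. The 4 adult genes sit between 74.7 and 223 TPM, the embryonic-group genes at 0, and Hbb-bs and Hbb-bt differ in order between the libraries.

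The bounds that the authors deposited for each TPM were narrower than the distance between libraries for some genes. Hba-a1 had bounds of 172 to 193 TPM in replicate 1 and 138 to 162 TPM in replicate 2, which do not overlap. Hba-a2 had bounds of 208 to 232 and 195 to 224 TPM, which do. The bounds of Hbb-bs were 67.0 to 82.8 and 97.0 to 123 TPM, and those of Hbb-bt 118 to 134 and 84.9 to 102 TPM, so both beta genes differed between libraries beyond their deposited bounds. These bounds cover the sharing and counting of reads within a library and not the sampling of cells.

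Between the libraries, on the log2(TPM + 1) scale, replicate 1 minus replicate 2 was 0.26 for Hba-a1, 0.02 for Hba-a2, -0.61 for Hbb-bs and 0.40 for Hbb-bt. None of the 4 was over 2-fold apart, where 16.4% of the 10685 genes detected in both libraries were. The median absolute difference was 0.31 over the 535 nuclear protein coding genes with a mean of 75 to 300 TPM. Of those 535 genes, 80.6% differed by less than the 0.61 of Hbb-bs. The direction for the alpha genes depended on the scaling: Hba-a1 was -0.16 and Hba-a2 -0.06 as TMM-normalised CPM (counts scaled to the library total times a factor estimated from the bulk of the genes), and Hba-a2 was -0.16 with TPM rescaled over nuclear protein coding genes. The beta genes kept their directions in those scalings. The median difference over 9769 coding genes detected in both libraries was 0.12.

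**Figure D2:**
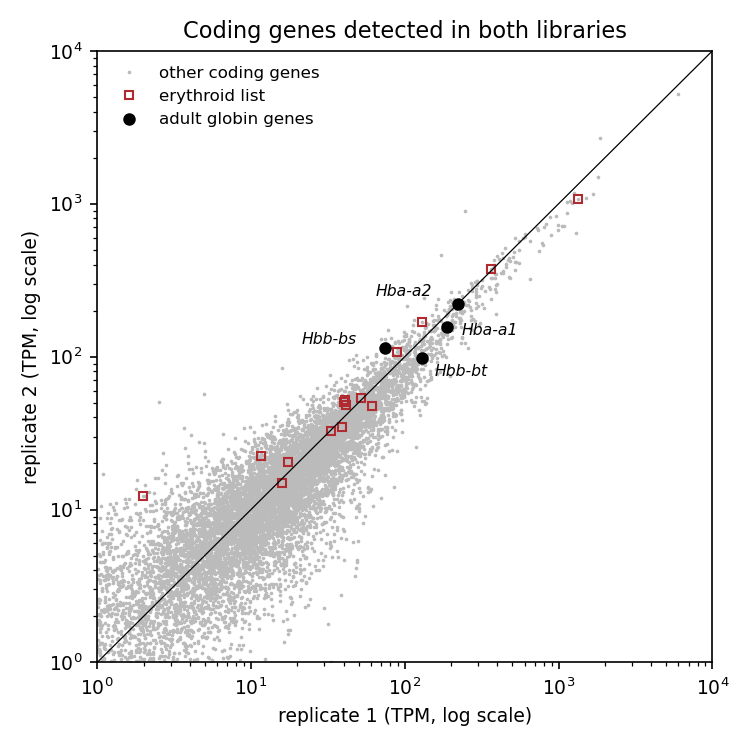
TPM in replicate 1 (x axis) against replicate 2 (y axis), both on log scales, for nuclear protein coding genes detected in both libraries (grey), the erythroid list (red squares) and the 4 adult globin genes (black); the line marks equal levels. Hba-a2 lies on the line, Hbb-bs above it, and Hbb-bt and Hba-a1 below it.

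Hba-a1 plus Hba-a2 gave 411 and 377 TPM (394 ± 24.1, SD, n = 2), with 53 nuclear protein coding genes above the sum in each library. Hbb-bs plus Hbb-bt gave 205 and 213 TPM (209 ± 5.62), with 146 and 119 coding genes above. The SD of the beta sum was below that of either beta gene, 27.9 for Hbb-bs and 22.3 for Hbb-bt. The alpha sum did not show this, its SD of 24.1 being close to the 21.8 of Hba-a1.

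Adult alpha RNA exceeded adult beta RNA in both libraries, by 2.01-fold in replicate 1 and 1.77-fold in replicate 2 in TPM. The mean log2 ratio was 0.92 ± 0.13 (SD, n = 2), and no pseudocount or left-out library changed its direction. Counted in reads, without the division by length, the alpha pair was 1.48 and 1.67 times the beta pair. With 2 libraries an exact two-sided sign-flip test cannot give a p below 0.5, so no p is given for any ratio. Within the alpha pair, Hba-a2 exceeded Hba-a1 by 1.19-fold and 1.40-fold in TPM (log2 0.37 ± 0.17) and by 1.25-fold and 1.16-fold in expected counts. Within the beta pair, Hbb-bs was 0.575 times Hbb-bt in replicate 1 and 1.16 times in replicate 2 in TPM (log2 -0.29 ± 0.72), so the direction rested on which library was used. In expected counts Hbb-bt was the higher in both, Hbb-bs being 0.559 and 0.847 times Hbb-bt.

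Hba-x, the embryonic zeta-like alpha gene, had no expected count in either library, which at 3 counts allows up to 0.165 TPM in replicate 1 and 0.295 TPM in replicate 2. Adult alpha RNA was 2497-fold and 1278-fold above that limit. The authors' deposited upper bounds for Hba-x were higher, 0.272 and 0.472 TPM, and adult alpha RNA was 1511-fold and 799-fold above those. For the 3 beta genes that follow, the deposited upper bounds were below the limit from 3 counts. Hbb-y, the embryonic epsilon-type beta gene, had no expected count and an upper limit of 0.174 and 0.311 TPM. Adult beta RNA was 1179-fold and 683-fold above that limit. Hbb-bh1, also used by yolk sac red cells, had limits of 0.190 and 0.342 TPM, which lie 1076-fold and 623-fold below adult beta RNA. Hbb-bh2 had limits of 0.291 and 0.526 TPM, which lie 704-fold and 404-fold below. The limits cover counting error only, since reads copied by PCR are not independent molecules. All 8 other globin family genes in the tables were also without counts in both libraries: the theta-type genes Hbq1a and Hbq1b, Hba-ps4, Hbb-bh0, Hbb-bh3, and Mb, Ngb and Cygb, the myoglobin, neuroglobin and cytoglobin genes.

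Expected counts need not be whole, because a read that fits several genes is shared out among them in proportion to the levels the program estimates. In replicate 1 Hba-a1 was given 2477.46 expected counts and Hba-a2 3094.54; in replicate 2 they were given 1455.42 and 1694.58. Hbb-bs was given 1353.95 and 866.16, and Hbb-bt 2420.05 and 1022.84. Counts that were not whole in both libraries were thus found for all 4 adult genes, against 9.14% of the 11618 genes with at least 10 counts in both, or 6.79% of the 10495 nuclear protein coding ones. A value within 0.005 of an integer was called whole. Each pair nevertheless summed to a whole number: 5572 and 3150 for the alpha pair and 3774 and 1889 for the beta pair. The fractions of the 2 genes of a pair thus cancelled in both libraries.

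The deposited posterior standard deviation, the program's own measure of how uncertain the sharing is, was the same for both genes of a pair. It was 68.30 reads for Hba-a1 and Hba-a2 in replicate 1 and 44.22 in replicate 2, and 58.22 and 36.17 reads for Hbb-bs and Hbb-bt. Relative to the mean count it ran from 2.19% (Hba-a2, replicate 1) to 4.25% (Hbb-bs, replicate 1). Nuclear protein coding genes with 800 to 4000 counts had a standard deviation of 0 in 89.6% of 4247 genes in replicate 1 and 85.0% of 3067 genes in replicate 2. The adult globin genes stood above 98.8% to 99.7% of them.

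How much of each transcript model occurs in no other annotated gene was measured with windows of 50 bases, searched in 141767 annotated transcripts. In the main model of Hba-a2 only 66 of 505 windows (13.1%) occurred in no other gene. For Hba-a1 it was 211 of 650 (32.5%), most of them starting before the start codon, where its model is longer. That longer part holds the 110 bases before the RefSeq start. There the promoters of Hba-a1 and Hba-a2 are identical over the 240 bases compared. Most Hba-a1 windows therefore count as its own because the Hba-a2 model leaves that stretch out, and not through a difference in sequence. In Hbb-bs 198 of 579 windows (34.2%) occurred in no other gene, and in Hbb-bt 273 of 654 (41.7%). All other windows of each adult gene were shared with the other gene of its pair. Transcripts of Hba-x, Hbb-bh1, Hbb-bh2 and Hbb-y shared no 50-base window with another gene, so their sequence is distinct from that of the adult genes at this length. With windows of 100 bases the shares were 43.5% for Hba-a1 and 25.5% for Hba-a2. The labels do not state the read length. All windows are those of the GENCODE M21 models. The main model of Hbb-bs has 628 bases there, against 778 in the deposited data, so its share there may differ.

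**Figure D3:**
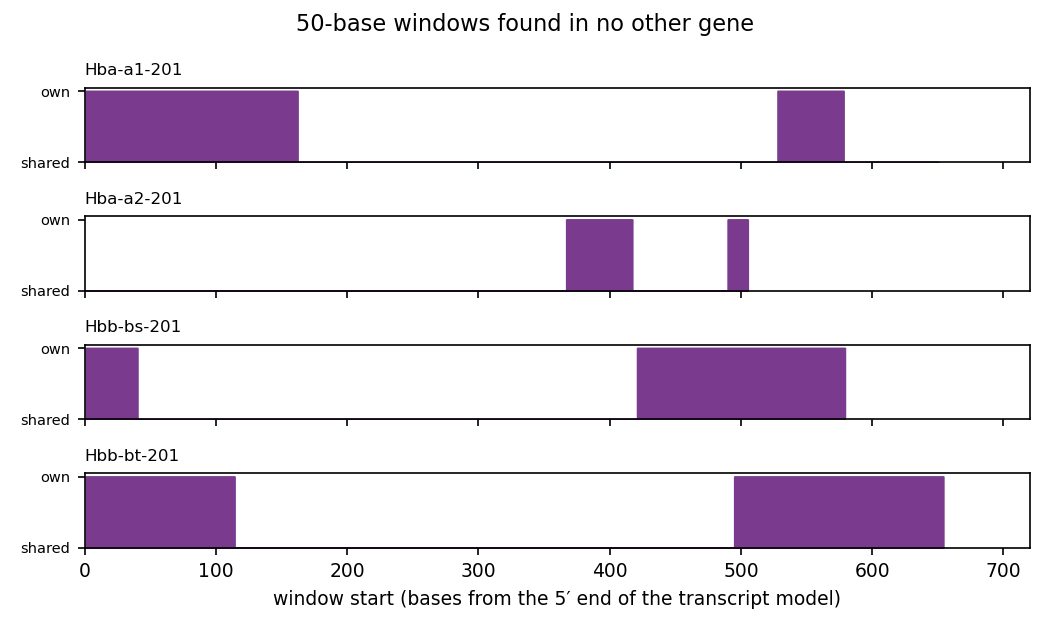
Each row is the main coding transcript model of an adult globin gene, with the window start in bases from its 5′ end (x axis) and filled where the 50-base window occurs in no other annotated gene. The filled part is smallest for Hba-a2 (66 of 505 windows) and largest for Hbb-bt (273 of 654), and the middle of all 4 is shared.

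The tables also share counts among transcript models of 1 gene, and these splits differed between the libraries. For Hba-a1, the main coding model took 668.48 of the expected counts in replicate 1 and 1161.01 in replicate 2, which is 27.0% and 79.8% of the gene. A model annotated with a retained intron took the other 1808.99 and 294.41 counts. The main model of Hba-a2 took all counts of its gene in both libraries, while its retained-intron model took none. The retained-intron models of Hba-a1 and Hba-a2 are 494 bases long and differ at 1 base, and 113 bases of the Hba-a1 one lie in the first intron of 122 bases.

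For Hbb-bs, the main coding model took 948.06 counts (70.0%) in replicate 1 and 320.83 (37.0%) in replicate 2. The retained-intron model took 405.89 and 318.94, and a short coding model took 0 and 226.39. Hbb-bt has a single model. The effective length of a gene, the mean number of start positions a read could have, follows this split: it was 565 bases for Hbb-bs in replicate 1 and 418 in replicate 2, against 581 and 573 for Hbb-bt. For Hba-a1 it was 411 and 511, against 432 and 424 for Hba-a2. TPM divides by these lengths, so the split differed together with the order of Hbb-bs and Hbb-bt. When the counts were divided instead by the effective length of the main coding model, Hbb-bs was 0.495 and 0.749 times Hbb-bt, lower in both libraries. On the same scale Hba-a2 was 1.67 and 1.56 times Hba-a1, and the alpha pair was 1.84 and 2.10 times the beta pair. The Hba-a2 to Hba-a1 values rest on the longer main model of Hba-a1. Its effective length was 577 and 569 bases in replicates 1 and 2, against 432 and 424 for Hba-a2. Division by the length of the main model was chosen after the data were seen.

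**Figure D4:**
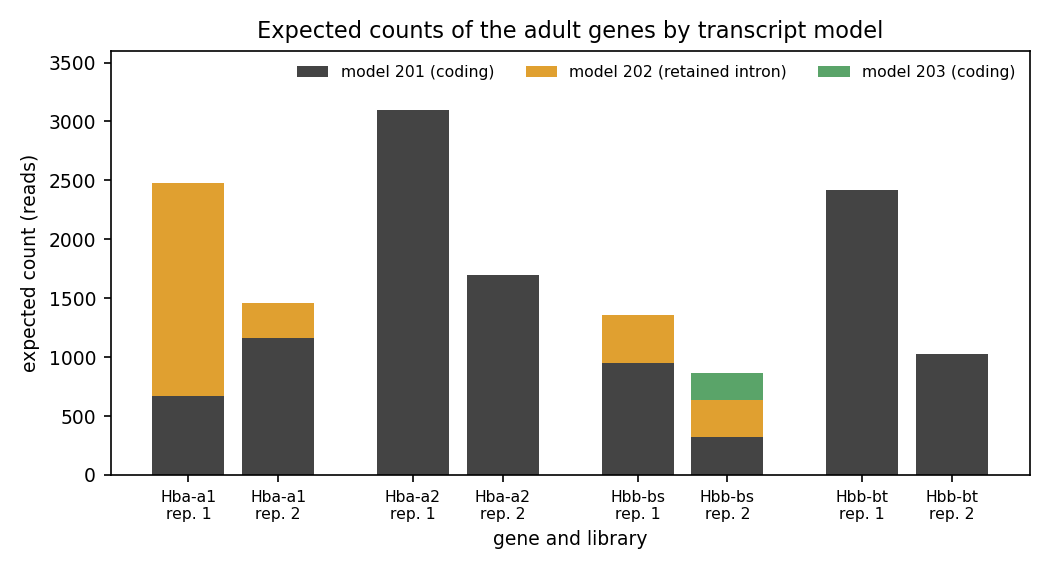
Expected counts (y axis, reads) of the adult globin genes in each library, stacked by transcript model: the main coding model (grey), the retained-intron model (gold) and the short coding model of Hbb-bs (green). Hba-a1 has mostly retained-intron counts (1808.99) in replicate 1 and mostly coding counts (1161.01) in replicate 2, while Hba-a2 and Hbb-bt have counts in 1 model only.

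Most known regulators of the globin genes were detected. Of 25 measured, 22 were detected in both libraries, against 45.5% of all nuclear protein coding genes. The list median was 40.6 and 38.4 TPM in replicates 1 and 2, beside 0.190 and 1.02 TPM over all nuclear protein coding genes. Lmo2, a bridging protein of the erythroid and stem cell transcription complex, had the highest mean, at 393 and 191 TPM (292 ± 143, SD, n = 2). Myb, a progenitor factor, was next at 187 and 196 TPM (191 ± 6.81) and was the higher of the 2 in replicate 2. Next came Atrx, a chromatin remodeller tied to alpha globin expression, at 174 ± 17.8 TPM. Ldb1, which links the globin enhancers to their promoters, was at 125 ± 2.88 TPM, and Zfpm1, the GATA partner FOG1, at 120 ± 5.82 TPM. Gata1, the erythroid GATA factor, was at 40.6 and 52.0 TPM, and Klf1, the activator that binds CACCC letters of the adult beta promoter, at 60.9 and 47.8 TPM.

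Bcl11a, a repressor of embryonic globin genes, stood at 81.0 and 92.0 TPM (86.5 ± 7.81). Eif2ak1, the heme-regulated kinase that slows globin translation, was at 17.3 and 19.0 TPM. The 3 not detected in both libraries were the fetal-stage RNA-binding genes Lin28a (0 and 1.16 TPM), Lin28b (0 and 0.110 TPM) and Igf2bp3 (0 and 0.180 TPM). Ahsp, the alpha chain chaperone, is not analysed here.

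Genes beside the alpha cluster were lower than the adult alpha genes. Nprl3, which carries the main alpha globin enhancers in its introns, was at 37.6 and 27.5 TPM. Polr3k was at 5.91 and 6.56 TPM and Mpg, a DNA repair glycosylase, at 5.18 and 3.64 TPM. These 3 of 6 were the ones detected in both libraries, beside 45.5% of all nuclear protein coding genes. Rhbdf1 was at 0 and 2.65 TPM, Snrnp25 at 0 and 2.95 TPM and Sh3pxd2b at 0.230 and 1.83 TPM. Beside the beta cluster, the olfactory receptor genes Olfr66 (no count in either library) and Olfr67 (0 and 1 count) and the pseudogene Gm15115 inside the cluster (no counts) were at or near 0, beside 205 and 213 TPM for Hbb-bs plus Hbb-bt.

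All 9 enzymes of heme synthesis were detected in both libraries, against 45.5% of all nuclear protein coding genes. The median of these enzymes was 35.5 and 53.4 TPM. Alas2, the erythroid form of the first enzyme, was the lowest of them, at 1.99 and 12.2 TPM (113 and 359 expected counts). Alas1, its form in all cells, was at 24.2 and 45.3 TPM, and Cpox, a later enzyme of the pathway, was the highest at 123 ± 25.5 TPM. The adult alpha pair was thus about the size of the summed heme enzymes, which reached 424 and 449 TPM.

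Of the erythroblast and red cell markers, all 15 measured were detected in both libraries, against 45.5% of all nuclear protein coding genes. The medians of these markers were 40.6 and 48.5 TPM and their sums 2270 and 2107 TPM. Car1, an erythroid carbonic anhydrase, led them at 1333 and 1071 TPM, above every globin gene. Slc4a1, the anion exchanger of the red cell membrane, was at 40.1 and 50.6 TPM. Of the late red cell list, 11 of 12 were detected in both, with sums of 356 and 360 TPM; Bpgm, the enzyme that makes the hemoglobin ligand bisphosphoglycerate, was at 0 and 2.30 TPM. The late red cell sum was thus about as high in both libraries, and so was the globin sum, whereas the neutrophil sum of 315 TPM in replicate 2 had no counterpart in replicate 1, where its genes were at 0 or close to it. Megakaryocyte markers summed to 20.4 and 44.9 TPM, with Pf4, Ppbp and Gp1bb at 0 in replicate 1. B cell markers summed to 9.08 and 23.2 TPM, with Cd79b, Pax5 and Ms4a1 at 0 in replicate 1. T and NK cell markers had a median of 5.30 TPM in replicate 1 against 0.215 TPM in replicate 2, although Nkg7, at 36.2 and 55.8 TPM, kept their sums at 57.2 and 57.9 TPM. Of these, Cd3e was at 3.56 and 0 TPM, Cd3g at 3.18 and 0 TPM, Klrb1c at 7.24 and 0.430 TPM and Ncr1 at 7.04 and 1.74 TPM, and Cd3d was at 0 in both libraries. The part of these cells in the globin levels was not tested.

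**Figure D5:**
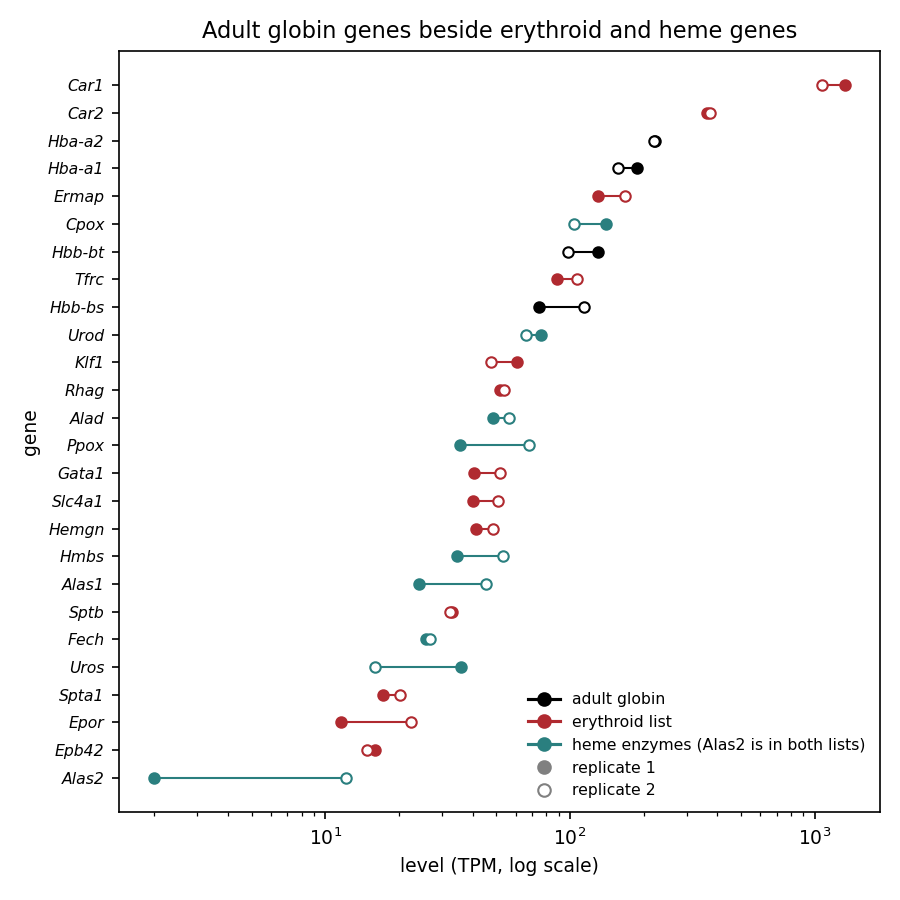
Level in TPM (x axis, log scale) of the adult globin genes (black), erythroid list (red, 1 member not drawn) and heme enzymes (teal), with filled points for replicate 1 and open points for replicate 2 joined by a line, ordered by mean. Hba-a2 and Hba-a1 stand below Car1 and Car2, and Alas2 is the lowest at 1.99 and 12.2 TPM.

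By level alone, over the 2 libraries, the nuclear protein coding genes nearest to the adult alpha pair were Tpt1 (436 and 362 TPM), Rplp1 (420 and 351 TPM) and Srgn (433 and 353 TPM), at distances of 0.103, 0.110 and 0.120 in log2(TPM + 1). Those nearest to the adult beta pair were Serinc3, Anp32b and Gnas, all between 197 and 215 TPM, at distances of 0.016, 0.036 and 0.054. With 2 libraries such a likeness describes the level only.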

How the data were processed

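Gene and transcript tables of 2 total RNA libraries were used. The authors deposited expected counts (estimated reads of each gene and transcript) on build mm10 with GENCODE M4, and the column names are those of RSEM, per the file headers. TPM and FPKM were deposited with them, as were the posterior SD and credibility bounds (used as scores in the authors' units) and the percent of a gene's TPM per transcript. Not given in the sources used here: aligner, program version, strand setting.

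Detection required 1 TPM and 10 expected counts. Ratios had a pseudocount of 0.1 TPM, and differences were log2(TPM + 1). With 1 group of 2 libraries no test was made. Rows that name no mouse gene held 0.0120% and 0.00719% of counts in replicates 1 and 2. Sequences came from GENCODE M21 transcripts of the same build, whose models differ in length from those of the files for Hbb-bs, Hbb-y, Hbb-bh1 and Hbb-bh2, and from RefSeq. TMM factors came from edgeR 4.0.16 (R 4.3.3) on counts rounded to whole numbers, tested on simulated data; the rest used Python 3.11.15, numpy 2.4.6, pandas 2.3.3, Biopython 1.88 and matplotlib 3.10.9. Named genes were all members, other globins and neighbours, the 5 highest regulators with those not detected in both libraries, and set examples. Others (Ngp, Slamf1, Alas1, Cpox, Car1, Slc4a1, Bpgm, Bnip3l and markers of other cells) were named after their values were seen. A member of the erythroid lists is not reported here by name. The members and lists were chosen with earlier results of these data known.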

Additional observations from a re-analysis of the deposited data

How the results depend on the processing

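Over 68 alternatives for 14 results, 47 left the value within the spread, 17 moved it and 4 turned its direction. The spread was the SD of the 2 libraries for levels and ratios. For differences between libraries it was the counting error of the reads, and for the number detected a fixed fold band. Leaving out 1 of 2 libraries cannot move a mean beyond their SD. Those alternatives could thus only stay within the spread or turn direction, and the tally is no measure of robustness. The summed level of 603 TPM became 583 with posterior mean TPM, 184 as CPM (no division by length) and 2137 with TPM rescaled over nuclear protein coding genes, and 590 to 616 with 1 library left out. The log2 alpha to beta ratio became 0.65 as CPM and ran from 0.83 to 1.01 with 1 library left out. The log2 Hba-a2 to Hba-a1 ratio ran from 0.25 to 0.49 with 1 library left out. The log2 Hbb-bs to Hbb-bt ratio ran from -0.80 to 0.22 in the same way and turned positive, 0.22, without replicate 1. In alternatives chosen after seeing the data, Hba-a2 to Hba-a1 was 0.69 with counts over the effective length of the main coding transcript and 1.80 with the TPM of that transcript alone, where Hbb-bs to Hbb-bt was -1.69. The embryonic-group share of globin TPM was 0 and became 0.0780% with posterior mean TPM, which gives a value above 0 to genes with no count. The difference between libraries turned to -0.16 for Hba-a1 and -0.06 for Hba-a2 as TMM-normalised CPM, and to -0.16 for Hba-a2 with rescaled TPM. The cause of these changes was not tested beyond what each scale divides by. No paired analysis was possible because there is 1 group. For the embryonic-group genes, a count of 0 gives the stated upper limits for counting error only, and 2 libraries limit every mean and SD.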
